A study of Mus musculus with 4 samples.

Results

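Genes named Zfp followed by a number encode zinc finger proteins, and 149 of the 8016 genes with an exonic SNP on chromosomes 1 to 19 in these data carry such a name. They were chosen by symbol alone, from the exonic rows of the allele counts of 4 RNA pools, and not by any measured value. The 149 genes lay on 19 chromosomes and 148 of them were matched to GENCODE M1. They held 1131 listed exonic SNPs, from 1 to 68 per gene with a median of 5, against a median of 3 over all genes.

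Most proteins of this name carry fingers of the C2H2 type, in which a pair of cysteines and a pair of histidines hold a zinc ion, and strings of such fingers read DNA sequence. Many of them also carry a KRAB domain, which recruits the corepressor Trim28 and the histone methyltransferase Setdb1, and these KRAB genes sit in tandem clusters and silence retroelements and some imprinted loci. Others under the same symbol are different kinds of protein, such as the CCCH type regulators of mRNA decay. In adipose tissue the best known members are Zfp423, which commits precursors to the adipocyte fate, and Zfp467, which favours adipocyte over bone cell differentiation.

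The RNA came from the gonadal fat pad of chow fed F1 mice of C57BL/6J (B) and DBA/2J (D), so every animal was heterozygous wherever the strains differ. The SNPs are those listed as differing between B and D. The study sequenced genomic DNA of D mice at some SNPs with B reads only, and at every one of these D carried the B base. None of the SNPs it lists for this lay in a Zfp gene. Thus an SNP without D reads may reflect a lack of D RNA or a listed variant that D does not carry, and which of these holds was not tested for the Zfp genes. The mother's strain is written first, the labels give an age of 8 weeks (the study's methods give another age), and each pool combined several animals. Pool 1 is labelled BxD female (3 animals), pool 2 DxB female (2 animals), pool 3 BxD male (3 animals) and pool 4 DxB male (3 animals). Each pool is the only library of its cross and sex, so that the spread between pools joins the differences between crosses, sexes and animals with technical error. The names of the deposited files give pool 2 as BxD male and pool 3 as DxB female, against their labels. At exonic X-linked SNPs with reads of both alleles over the 4 pools, the D base made up 37.0% of reads in pool 1. It made up 1.15% in pool 2, 34.7% in pool 3 and 69.3% in pool 4. Pool 2 carried almost no D reads on the X chromosome, where a DxB female would carry a D chromosome from the mother, and pool 3 carried D reads at a share near that of pool 1, where a BxD male would carry only a B chromosome. Pool 4, a DxB male by label and file name, would carry only a D chromosome, but had 2870 B and 6465 D reads at these SNPs. The source of these B reads was not tested. Thus the libraries labelled DxB female and BxD male went against their labels. The comparison of D with B, which carries the main results, needs neither cross nor sex. Its main test took the 8 allele libraries as separate samples, and the pairing of B and D within a pool entered only as an alternative.

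Counted exonic reads on chromosomes 1 to 19 numbered 3379195 to 4297890 per pool, of which 15618 to 24741 (0.462% to 0.576%) fell in the Zfp genes. A gene's reads here grow with its number of SNPs as well as with its RNA, and in a bulk sample fewer cells of a type and less RNA per cell cannot be told apart, so reads are given as depth and not as expression level. Of 11 adipose markers the 4 with a counted SNP (Car3, Cidec, Lep and Lpl) held 460264 to 635395 reads per pool. Of 4 macrophage markers Cd14 and Cd68 held 1159 to 2193 reads, and of 4 endothelial markers Pecam1 held 122 to 221. The epididymis marker Lcn5 had 17 reads in pool 4 and was at 0 in the others, and the muscle marker Myh4 had 75, 3, 29 and 0 reads in pools 1 to 4. The remaining listed markers, Adipoq and Fabp4 among them, had no counted exonic SNP and so no value here. The part of such cells in the allele ratios was not tested.

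The bases around 15 coding SNPs of 9 Zfp genes are shown first, because several of the largest allele differences rested on a single SNP, and because neighbouring SNPs of the same gene gave different ratios. Each run is 25 bases of the plus strand of the mouse genome NCBIM37 (mm9), read 5′ to 3′, and the capital is the B base of the SNP. The change is written as the B base, its position counted from 1 at the 5′ end of the run, and the listed D base. All 15 sites lay in coding exons. The first 4 genes had a single listed exonic SNP each, with no or almost no D read.
Zfp513, chr5:31502840-31502864, G13A, synonymous: ctgggctgaggcGtaggggcagcgg
Zfp771, chr7:134398068-134398092, T13C, synonymous: gctacccgccagTgccacagccgcc
Zfp276, chr8:125778605-125778629, T13A, non-synonymous: cgcctaccaccaTgaagcgggaccg
Zfp777, chr6:47994152-47994176, T13G, non-synonymous: gggcagtggctgTtctttctgggcg
In the other genes an SNP with B reads only, or with a single D read, stood beside SNPs with reads of both alleles. Zfp180 has 4 of its coding SNPs shown, all from its last exon, in chromosome order (36 B and 0 D reads, 56 and 50, 71 and 61, 28 and 0).
Zfp180, chr7:24889423-24889447, G13A, non-synonymous: gacttgccagctGtacatggaacag
Zfp180, chr7:24889566-24889590, G13A, synonymous: ggagcagtcgggGaaacaaccgaac
Zfp180, chr7:24889782-24889806, T13C, synonymous: ccaaaagatcagTgatagctcagat
Zfp180, chr7:24889979-24890003, G13A, non-synonymous: gctttaaagggcGcgggcaagtttt
Zfp219 follows with neighbouring SNPs of 1 exon (80 B and 1 D, 146 and 166), then Zfp296 (22 and 9, 43 and 0), Zfp282 with SNPs of different exons (58 and 1, 42 and 60) and the coding SNP of Zfp106 (119 and 147).
Zfp219, chr14:52626332-52626356, T13G, synonymous: agacgtgtcggcTcggggctgccgg
Zfp219, chr14:52626368-52626392, G13A, synonymous: acgacggctatgGtgtacttgcaga
Zfp296, chr7:20162766-20162790, T13C, synonymous: cgtagatcccgaTaccgacaccgac
Zfp296, chr7:20162879-20162903, T13G, non-synonymous: ccatatcggatgTgaagcgtcaact
Zfp282, chr6:47827771-47827795, A13G, non-synonymous: aggaggtctgccAccaggagccggc
Zfp282, chr6:47854838-47854862, G13A, non-synonymous: ggtgcgggcagtGgctgcggtagct
Zfp106, chr2:120346140-120346164, T13C, non-synonymous: cactcaccttaaTattgtagcagcg
None of these 25-base runs, with either base at the SNP, occurred elsewhere in the genome.

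The first question was how far the B and D copies of the Zfp genes differ in their RNA. Most were not called apart from the spread between pools, and Zfp251 and Zfp687, whose single SNP was listed with the same base for both strains, had no counted read. Of 147 Zfp genes with a counted read, 16 (10.9%) were called by the edgeR quasi-likelihood test of D against B (Benjamini-Hochberg adjusted p under 0.05 over all genes), 13 of them higher from B and 3 higher from D. The background was 18.3% of 7927 genes, with 13.3% higher from B and 5.06% higher from D, so the Zfp genes were called at a lower share in each direction. All 16 called genes had the same direction in each of the 4 pools. Summed over the Zfp genes, the D base made up 46.1%, 46.1%, 45.7% and 45.4% of reads in pools 1 to 4 (mean 45.8% ± 0.317, SD, n = 4), next to 46.6% of the reads of all genes. Among genes with at least 200 reads, 63 of 74 Zfp genes (85.1%) had a fitted log2 ratio within 0.5 of 0, against 74.6% of 4343 genes, and the median absolute log2 ratio was 0.24 and 0.25. The median log2 ratio was 0.03 over the 147 Zfp genes and -0.03 over all genes.

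**Figure D1:**
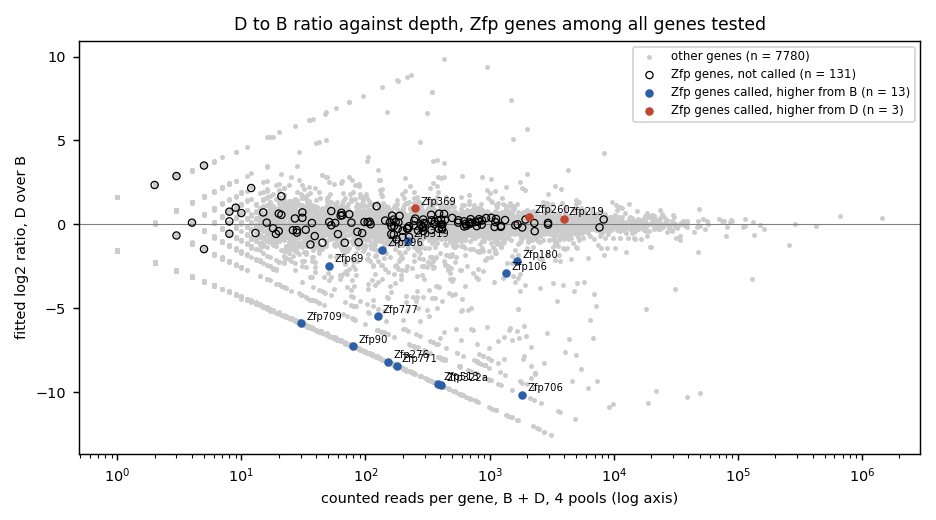
Fitted log2 ratio of D over B (vertical axis) against counted reads per gene summed over alleles and pools (horizontal log axis), with other genes in grey, Zfp genes that were not called as open circles, and called Zfp genes in blue (higher from B) or red (higher from D). Called Zfp genes reach from 30 reads (Zfp709) to 3942 reads (Zfp219), and the lowest diagonal band holds genes without a D read, whose fitted ratio depends on the prior count of the fit and is no measure of size.

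The reads of each pool came from the same animals for B and D. With the pool as a block, edgeR called 34 of 147 Zfp genes (23.1%), 19 higher from B and 15 higher from D, against a background of 32.7% of all genes (19.3% from B and 13.4% from D). All 16 genes called without the block were among them. The added genes were Zfp87, Zfp526, Zfp644, Zfp367, Zfp704 and Zfp36l2 from B, and Zfp91, Zfp462, Zfp598, Zfp414, Zfp213, Zfp335, Zfp609, Zfp386, Zfp566, Zfp661, Zfp68 and Zfp612 from D. The share of calls that went to B was 81.3% for the Zfp genes and 72.4% for all genes without the block, and 55.9% and 59.0% with it.

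Of the 13 genes higher from B, 6 had no D read in any pool (Zfp322a, Zfp513, Zfp771, Zfp276, Zfp90 and Zfp709), and Zfp706 had 1. Zfp706, a small zinc finger protein known to favour the exit of embryonic stem cells from self-renewal, had the deepest such counts. Its B and D reads were 476 and 0 in pool 1, 439 and 0 in pool 2, 523 and 0 in pool 3, and 382 and 1 in pool 4. The D share was 0.0549% of 1821 reads (95% Wilson interval 0.00969% to 0.310%), and edgeR gave an adjusted p of 7.49e-10. All 4 counted SNPs lay in the 5′ untranslated region of a single exon, and 3 of them held 625, 831 and 362 of the B reads.

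Zfp322a, known from the upkeep of pluripotency in embryonic stem cells, had 132, 101, 95 and 75 B reads in pools 1 to 4 and no D read at any of its 7 SNPs. The 403 reads allow a D share of up to 0.744% (3 counts), and B was at least 123-fold higher against a floor of 3 D reads over the 4 pools (edgeR adjusted p in all 4 fits that left a pool out at most 1.50e-05). Of the 7 SNPs 6 lay in the 3′ untranslated region and 1 was a synonymous coding SNP. Of them 3 also lay in an exon of a gene on the opposite strand, 4930586N03Rik, and the library did not keep the strand. The other 4 SNPs, outside that exon, had 76, 45, 30 and 94 B reads and no D read.

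The single SNP genes without D reads repeated this pattern at lower depth. The fold bounds here and for Zfp322a hold only if D carries the listed base, which was not tested. Zfp513, a gene with mutations known in retinal degeneration, had 98, 81, 146 and 60 B reads in pools 1 to 4, and B was at least 118-fold higher. Zfp771 had 41, 47, 56 and 34 B reads, at least 54.4-fold higher. Zfp276 had 46, 32, 39 and 35 B reads, at least 46.4-fold higher. None of these genes had a D read, and each rests on a single SNP in a coding exon. Zfp90, a KRAB zinc finger gene linked to fat mass in mouse genetic studies, had 19, 26, 17 and 18 B reads at an SNP of its 5′ untranslated region, at least 24.4-fold higher. Zfp709 had 5, 4, 12 and 9 B reads at an SNP of its 3′ untranslated region, at least 9.17-fold higher, and this SNP lies outside every exon of GENCODE M1. Zfp777 had 40, 33, 28 and 22 B reads with 0, 0, 0 and 2 D reads, so that its D share was 1.60% (95% interval 0.440% to 5.65%). Intervals and floors cover counting error only, since read mates were counted separately and the methods do not mention filtering of PCR duplicates.

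**Figure D2:**
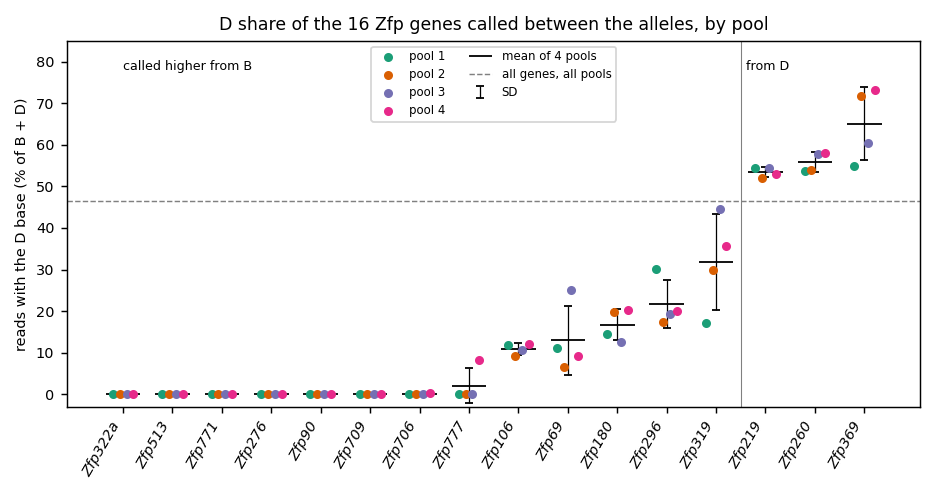
Percent of reads with the D base (vertical axis) for each called Zfp gene (horizontal axis), with a dot per pool, a line at the mean of the 4 pools and error bars of 1 SD, and the dashed line at the 46.6% of all genes. Zfp106, Zfp69, Zfp180, Zfp296 and Zfp319 lie between the genes with almost no D read and the dashed line, and Zfp219, Zfp260 and Zfp369 lie above it in every pool.

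The remaining genes higher from B had reads of both alleles. Zfp106, an RNA binding protein needed by motor neurons, had 263 B and 35 D reads in pool 1, 339 and 34 in pool 2, 327 and 39 in pool 3, and 282 and 39 in pool 4. Its D share was 10.9% ± 1.36 (SD, n = 4) and its log2 ratio was -2.92 (SE 0.19). The pools lay close together, but the SNPs did not. At its 7 counted SNPs in the 3′ untranslated region, which lie in the same exon, Zfp106 had B reads only, among them 161, 149 and 731. At its coding SNP, 11.3 kb from the nearest of these, it had 119 B and 147 D reads, a D share of 55.3% (95% interval 49.3% to 61.1%). An SNP left out of the sums for its distance of 10 bases from the one with 149 B and 0 D reads had 16 B and 123 D reads.

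Zfp180, a C2H2 gene at the start of a cluster on chromosome 7, had 402 B and 68 D reads in pool 1, 335 and 82 in pool 2, 388 and 56 in pool 3, and 261 and 66 in pool 4. Its D share was 16.7% ± 3.77 (SD, n = 4) and its log2 ratio was -2.20 (SE 0.15). Here too the SNPs of the gene fell into separate sets. At 8 of its 12 SNPs Zfp180 had B reads only, with 513 and 214 in its first exon and 28 to 110 at those of its last exon. At the other 4 it had 277 B and 272 D reads. In the last exon the SNPs with both alleles lay between SNPs with B reads alone, as in the sites printed above.

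When SNPs without a read of one allele were left out, Zfp106 and Zfp180 kept their SNPs with both alleles and changed direction. Zfp106 was then higher from D (log2 1.11, SE 0.24, edgeR adjusted p = 0.00908). This rested on its coding SNP and on the SNP with 16 B and 123 D reads, which was then no longer left out for its distance. Zfp180 had a log2 ratio of 0.085 (SE 0.17, edgeR adjusted p = 0.860). In this count 7 of 137 Zfp genes were called, 5 from B and 2 from D, against a background of 13% of all genes. Of the 16 genes called before, 5 were called again in the same direction, Zfp706, Zfp777, Zfp69, Zfp319 and Zfp260. An SNP with any read of both alleles stayed in this count. Zfp706 stayed through its 1 D read and Zfp777 through its 2 D reads, so their calls here are no separate evidence. Zfp273, of the cluster on chromosome 13, was added to those higher from B.

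Zfp69, a candidate gene for high blood glucose in obese mice whose transcript is known to be cut short by a retrotransposon insertion in C57BL mice, had 8, 14, 12 and 10 B reads and 1, 1, 4 and 1 D reads in pools 1 to 4. Its log2 ratio was -2.46 (SE 0.55, edgeR adjusted p = 0.00654). Of its 3 counted SNPs, all in 1 exon, the first 2 had 7 B and 6 D reads together and the last had 37 and 1. Zfp296, a cofactor of reprogramming to pluripotency, had 44 and 19, 19 and 4, 25 and 6, and 16 and 4 B and D reads. Its log2 ratio was -1.53 (SE 0.45). It had 43 B and 0 D reads at 1 SNP, and 22 and 9, 9 and 9, 3 and 0, and 27 and 15 at the others. Zfp319 had 53 and 11, 40 and 17, 31 and 25, and 29 and 16 reads, and a log2 ratio of -0.98 (SE 0.29). Its D share ran from 17.2% in pool 1 to 44.6% in pool 3. An SNP of its first exon had 78 B and 2 D reads, and those of the other exon had 75 and 67 together.

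The calls of Zfp69, Zfp296 and Zfp319 rested on the full set of pools. Zfp69 was called in 2 of 4 fits that left out a pool, and Zfp296 and Zfp319 in 1 of 4 each, whereas every one of the 8 genes with at most 2 D reads, and Zfp106 and Zfp180, was called in all 4. With only pools 1 and 4, whose labels and file names match, 9 of 147 genes were called, all higher from B, against a background of 10.1% of 7649 genes, and Zfp69, Zfp296, Zfp319, Zfp709 and the 3 genes higher from D were not.

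**Figure D3:**
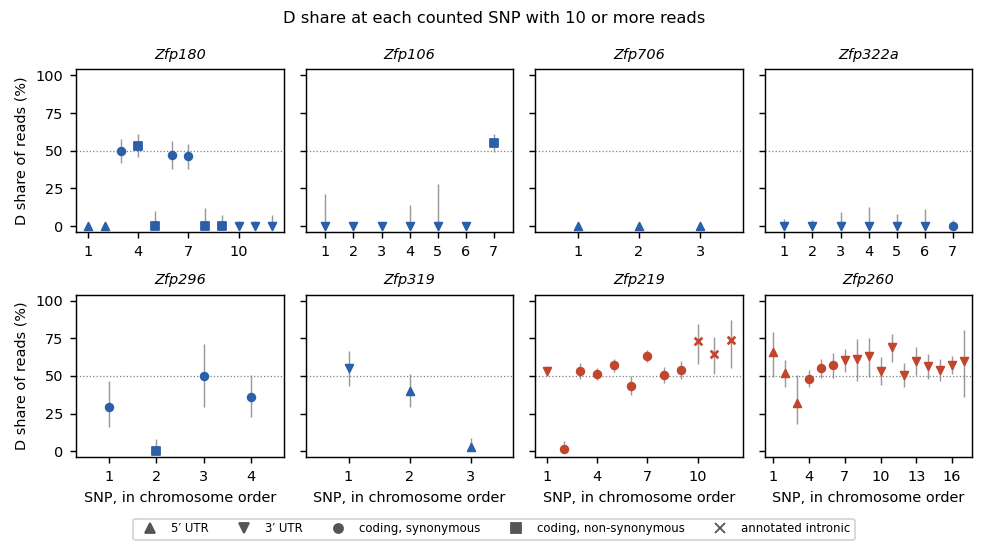
D share (vertical axis, percent) at each counted SNP with at least 10 reads, in chromosome order along 8 called Zfp genes, with 95% Wilson intervals as bars, symbols for the annotation of the SNP and a dotted line at 50%. Zfp180 has 4 SNPs between 46.2% and 53.3% and 8 at 0%, Zfp106 has 1 at 55.3% and the others at 0%, and Zfp219 has 1 SNP at 1.23% among SNPs of 43.5% to 74.1%.

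The genes higher from D differed by less. Zfp369, the neurotrophin receptor interacting factor NRIF2, had the largest ratio of the 3, with 41 B and 50 D reads in pool 1, 19 and 48 in pool 2, 21 and 32 in pool 3, and 11 and 30 in pool 4. It was 1.93-fold higher from D (log2 0.95, SE 0.29, edgeR adjusted p = 0.0421). Zfp260, which cooperates with Gata4 in the heart, had 312 and 360, 224 and 263, 208 and 284, and 184 and 255 reads. It was 1.38-fold higher from D (log2 0.46, SE 0.12, edgeR adjusted p = 0.0207), and 16 of its 18 counted SNPs had more D than B reads.

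Zfp219, a transcription factor known as a partner of Sox9 in cartilage, had 507 and 603, 503 and 543, 467 and 556, and 358 and 405 reads. It was 1.25-fold higher from D (log2 0.32, SE 0.10, edgeR adjusted p = 0.0415). Its 3 SNPs with the largest D shares, 64.3% to 74.1%, lay outside its exons in GENCODE M1 and in an exon of a gene on the opposite strand, G630016D24Rik. Without SNPs listed under several genes Zfp219 was no longer called. None of the 3 genes higher from D was called without pool 2, without pool 3 or without pool 4. Zfp219 was called in 0 of 4 fits that left out a pool, and Zfp260 and Zfp369 in 1 of 4 each, the one without pool 1. None was called with 1 library size per pool for both alleles. That scaling moved the median log2 ratio of all genes from -0.03 to -0.15. It gave 14 Zfp calls from B and 0 from D, against 1200 and 242 over all genes. Without SNPs whose 25 bases occur elsewhere in the genome, Zfp369 was no longer called.

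Across the Zfp genes, 463 of 567 counted SNPs with at least 20 reads (81.7%) had a D share from 35% to 65%, against 78.9% over all genes. The D share was under 10% at 38 of them (6.70%, against 6.15%) and over 90% at 0 (against 0.517%). Of 712 SNPs with at least 10 reads, 35 (4.92%) had B reads only and 0 had D reads only, next to 3.98% and 0.290% over all genes. These 35 SNPs lay in 16 Zfp genes, 10 of which also had an SNP with both alleles and at least 10 reads. They carried 5085 of the 44337 B reads. Of the 35, 18 lay in 3′ and 7 in 5′ untranslated regions, 9 were coding and 1 was annotated as intronic. An A and a G were the pair of bases at 20 of them, and a C and a T at 6.

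Beyond the called genes, the widest spreads within a gene were in Zfp142, Zfp82, Zfp282 and Zfp746. Zfp142 had 36 B and 0 D reads at 1 SNP and 18 and 31 at another, which also lies in an exon of Plcd4 on the opposite strand, and its sum was 425 and 362. Zfp282 had a D share of 1.69% at an SNP in 1 exon and 58.8% at an SNP in another. Zfp746 had 22 B and 0 D reads in its 5′ untranslated region and 97 and 125 in its 3′ untranslated region. Zfp82 had 21 and 3 reads at a coding SNP, and 26 and 55 at an SNP that the files also list under another gene. None of these 4 genes was called in the main test.

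The 10 Zfp genes with the most reads held 1831 to 8298 each. Zfp598, the ubiquitin ligase that senses collided ribosomes, was the deepest, with 1094 and 1143, 1011 and 1141, 1023 and 1234, and 785 and 867 B and D reads. Its D share was 52.8% ± 1.48 (SD, n = 4) and its log2 ratio 0.29 (SE 0.10, edgeR adjusted p = 0.0785). With the pool as a block Zfp598 was higher from D (edgeR adjusted p = 0.000425), and DESeq2 called it too. Zfp36l2, a CCCH protein that binds AU-rich elements and speeds mRNA decay, had 1323 and 1152, 891 and 757, 1215 and 902, and 812 and 632 reads. Its log2 ratio was -0.18 (SE 0.14, edgeR adjusted p = 0.460), and with the block it was higher from B (adjusted p = 0.0245). Zfp36 and Zfp36l1, the other genes of that list, had no counted exonic SNP.

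Zfp462, active in neural development, had 27 counted SNPs and a D share of 53.1% ± 1.69 (SD, n = 4, log2 0.29, SE 0.23). With the block it was higher from D (edgeR adjusted p = 0.00750). Zfp704 also had 27 counted SNPs, and a D share of 40.8% ± 2.12 (log2 -0.41, SE 0.15). Its D share was between 37.9% and 43.0% in each pool, and with the block Zfp704 was higher from B (edgeR adjusted p = 0.000553). The SNPs of Zfp704 were less even, with D shares from 1.14% to 57.0% at the 23 with at least 20 reads. Zfp146, Zfp503, Zfp664 and Zfp775 had D shares of 47.4%, 49.2%, 49.1% and 44.8%, and were called neither with the block nor without it. The 5 SNPs of Zfp664 are all listed under another gene as well.

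The genes with known roles in fat cells had little difference between the alleles. Zfp467 had 156 and 163, 118 and 121, 158 and 158, and 120 and 117 B and D reads in pools 1 to 4, a D share of 50.3% ± 0.753 (SD, n = 4, log2 0.14, SE 0.14, edgeR adjusted p = 0.566). Zfp423 had 27 and 20, 23 and 20, 49 and 43, and 25 and 14 reads, a D share of 42.9% ± 5.06 (log2 -0.24, SE 0.37, edgeR adjusted p = 0.730). Its 95% interval of the pooled share, 37.5% to 50.5%, is wide at 221 reads. The 3 counted SNPs of Zfp423 include an SNP with at least 10 reads, all of them of B. Zfp423 had 586 B and 509 D reads at its intronic SNPs. The other 4 genes of that list (Zfp521, Zfp516, Zfp407 and Zfp638) had no counted exonic SNP on these chromosomes, and 0 of 2 were called with or without the block. The median log2 ratio of the 2 was -0.05, next to -0.03 over all genes.

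Of 5 genes that protect imprints or silence retroelements, 3 had reads and 0 were called by edgeR, with or without the block (median log2 ratio 0.64, that of Zfp57). Zfp445, which protects imprints together with Zfp57, had 83 and 94, 72 and 61, 72 and 66, and 54 and 56 B and D reads (log2 0.10, SE 0.15). Zfp57 had 20 reads and Zfp819 had 5, too few to show a difference of moderate size. Of 5 genes of RNA binding, ribosomes and splicing, Zfp106, Zfp326 and Zfp598 had reads (median log2 ratio 0.15). Zfp326, which couples elongation to splicing, had 53 and 57, 54 and 39, 51 and 49, and 22 and 36 reads at its single SNP (log2 0.15, SE 0.23).

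Of 12 genes of promoter binding and chromatin, 7 had reads (median log2 ratio 0.32) and only Zfp219 was called in the main test. With the block 4 of 7 were called, all higher from D (background 32.7% of all genes, 13.4% from D), which were Zfp219, Zfp335, Zfp609 and Zfp91. Zfp335, a part of histone H3 lysine methyltransferase complexes, had 158 and 177, 122 and 156, 132 and 153, and 112 and 117 reads (log2 0.32, SE 0.11, edgeR adjusted p = 0.0659, and 0.00687 with the block). Zfp609 had 123 and 146, 125 and 135, 95 and 120, and 85 and 107 reads (log2 0.38, SE 0.12, edgeR adjusted p = 0.0560, and 0.00334 with the block). Zfp91, a ubiquitin ligase of the NF-κB pathway, had a log2 ratio of 0.26 (SE 0.14), and its 5 SNPs are all listed under another gene too. Zfp281, Zfp292 and Zfp384 had log2 ratios of 0.79, -0.05 and 0.25 and were called in neither fit.

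With a gap of at most 1 Mb between neighbours, 74 of the 149 Zfp genes fell into 12 clusters of 3 or more. Inside clusters 3 of 74 genes with reads were called (4.05%, 2 from B and 1 from D), and outside clusters 13 of 73 (17.8%, 11 from B and 2 from D), next to the background of 18.3%, which the share outside clusters was near. With the pool as a block the counts were 9 and 25, against a background of 32.7%. The members in clusters were counted less deeply, with a median of 166.5 reads against 265, but had more listed SNPs, with a median of 6 against 4. Among SNPs with at least 10 reads, 10 of 385 in clusters (2.60%) and 25 of 327 outside (7.65%) had B reads only. The median absolute log2 ratio of genes with at least 50 reads was 0.24 in clusters (57 genes) and 0.29 outside (57 genes). The difference between these groups of genes is given as a description.

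The largest cluster, from Zfp708 to Zfp273 on chromosome 13 (67170442 to 67927828, mm9), held 14 genes, with a median of 35 reads each. None was called without the block, and Zfp87 was with it. Of its 845 reads 44.3% were of D. It also held 16 SNPs whose 25 bases occur elsewhere in the genome, out of 35 such SNPs in all Zfp genes. The cluster from Zfp84 to Zfp146 on chromosome 7 (30553606 to 30947999) held 13 genes and 9745 reads, 50.2% of them of D. Only Zfp260 was called there, and with the block Zfp566 as well. In this cluster 64 of 239 listed SNPs are given under more than 1 gene, so that Zfp27 and Zfp420, and Zfp82 and Zfp566, cannot be fully told apart.

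The cluster from Zfp160 to Zfp213 on chromosome 17 (21157059 to 23701061) held 9 genes with 1689 reads, of which 50.7% were of D, and 0 were called. With the block Zfp213 was higher from D (log2 0.30, edgeR adjusted p = 0.0297). The cluster from Zfp786 to Zfp775 on chromosome 6 (47769803 to 48573134) held 8 genes, and Zfp777 was the called one. Its neighbours Zfp282 and Zfp746 had D shares of 37.9% and 51.8%. The cluster from Zfp180 to Zfp526 on chromosome 7 (24867095 to 26010086) held 7 genes, with Zfp180 called. Its D share over all reads was 25.4%, the lowest of the 12, and Zfp180 held 1658 of its 2375 reads. Zfp526, at its other end, had 41 and 21, 19 and 14, 38 and 18, and 21 and 6 reads and was higher from B with the block (edgeR adjusted p = 0.0117).

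The other clusters, with 3 to 5 genes each, had no called gene without the block. They ran from Zfp551 to Zfp446, from Zfp579 to Zfp580 and from Zfp715 to Zfp819 on chromosome 7, from Zfp445 to Zfp105 on chromosome 9, from Zfp692 to Zfp39 on chromosome 11, from Zfp563 to Zfp414 on chromosome 17 and from Zfp113 to Zfp68 on chromosome 5. With the block Zfp414 and Zfp68 were higher from D (edgeR adjusted p = 0.0359 and 0.00636). Zfp68 had 63 and 72, 41 and 55, 29 and 62, and 29 and 41 B and D reads.

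**Figure D4:**
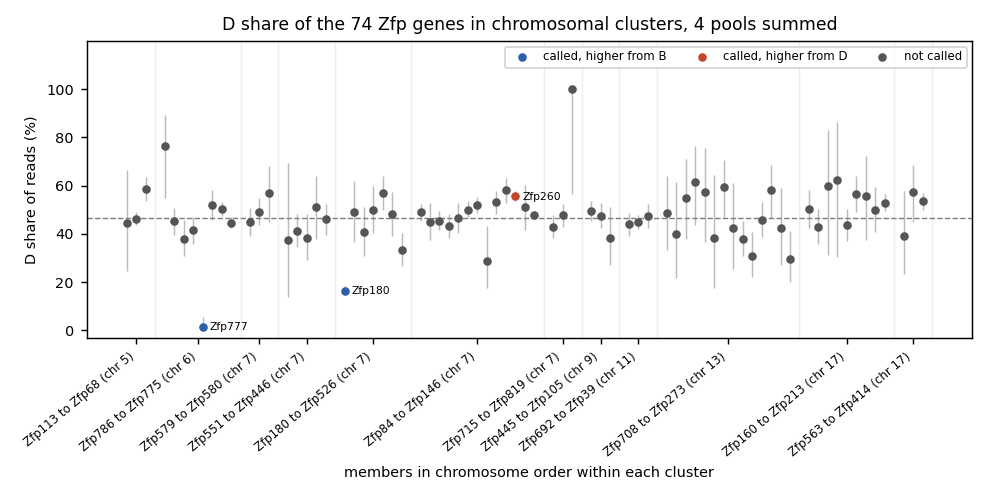
D share of the reads of each Zfp gene (vertical axis, percent, 4 pools summed) in its cluster (horizontal axis, members in chromosome order), with 95% Wilson intervals as bars and colours for the calls of the test without a block. Zfp777 and Zfp180 lie below every other member, most members scatter about the dashed line of all genes at 46.6%, and the member at 100% is Zfp819 with 5 reads.

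By number of listed SNPs, 6 of 27 Zfp genes with a single SNP were called (22.2%, all higher from B), against 21.0% of all genes with a single SNP. Among those with 2 to 3 SNPs 1 of 27 was called (3.70%, against 16.4%), with 4 to 7 SNPs 4 of 48 (8.33%, against 16.5%), and with 8 or more 5 of 45 (11.1%, against 19.1%). The 6 called genes with a single SNP were Zfp513, Zfp771, Zfp276, Zfp90, Zfp709 and Zfp777. All 3 genes higher from D had 8 or more listed SNPs. By depth, 5 of 22 Zfp genes with at least 1000 reads were called (22.7%, against 21.9%), 4 of 52 with at least 200 (7.69%, against 21.96%), 6 of 40 with at least 50 (15%, against 21.1%) and 1 of 23 with at least 10 (4.35%, against 17.2%), each class ending where the next begins. With fewer than 10 reads 0 of 10 were called by edgeR, against 0.678% of all genes at that depth, where calls are rare.

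**Figure D5:**
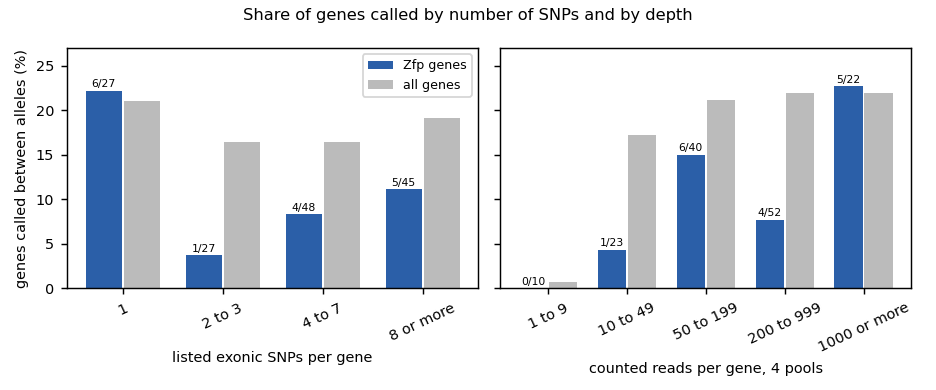
Percent of genes called (vertical axis, from 0) by number of listed exonic SNPs (left) and by counted reads (right), for Zfp genes in blue with called over tested genes above each bar, and for all genes in grey. Zfp genes with a single SNP (22.2%) and those with at least 1000 reads (22.7%) stand near all genes, and the other Zfp bars are lower.

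Introns give a separate set of SNPs, whose reads may come from unspliced RNA, which was not tested. Of the Zfp genes 123 had intronic SNPs, with 21630 reads, of which 48.1% were of D, next to 46.7% over all genes. In 83 genes with at least 20 exonic and 20 intronic reads, the D shares of exons and introns had a Pearson correlation of 0.44 and a Spearman correlation of 0.26 across genes, which share their libraries and are not independent replicates. The median absolute difference was 8.23 percentage points. Zfp771 had 35 B and 2 D reads at an intronic SNP, next to 178 and 0 at its exonic SNP. Zfp180 had 237 B and 56 D reads at its intronic SNPs, among them 200 B and 0 D reads at 4 SNPs that the annotation column of the files places in the 3′ untranslated region. Zfp219 had 575 and 638 reads in introns. Zfp260, higher from D in exons, had 76 B and 30 D reads in introns, and Zfp68 had 92 and 47.

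The second question was whether the maternal and paternal copies differ. No Zfp gene was called in pools 1 and 4 (edgeR, 0 of 147, and 0 with an unadjusted p under 0.05), where the edgeR background was 0% of 7649 genes. DESeq2 called 0 of 147 Zfp genes in these pools, against 4 of 7649 genes. With all 4 pools by the crosses of the file names, 0 of 147 were called by edgeR, against a background of 0.0505%, and 3 (2.04%) had an unadjusted p under 0.05, against 0.542% of all genes. By the crosses of the labels 0 were called and 1 (0.680%) had such a p, against 0.442% of all genes. The edgeR test with 2 pools has little power, since it called none of the 7649 genes. Only 12 of them (0.157%) had an unadjusted p under 0.05 in that test. The study reports imprinted genes in these pools, so even a large difference could be missed. Thus the lack of calls in pools 1 and 4 cannot show whether the maternal and paternal copies of a Zfp gene differ.

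The third question was whether the strain difference depends on sex. With the sexes of the labels 0 of 147 Zfp genes were called by edgeR, against a background of 0.101%, and 2 (1.36%) had an unadjusted p under 0.05, against 0.807% of all genes. With the sexes of the file names 0 were called, against a background of 0%, and 1 (0.680%) had such a p, against 1.34% of all genes. DESeq2 with the sexes of the labels called 0, against 9 of 7927 genes. With the pool as a block 0 were called by edgeR, against 11 of 7927 genes. In that fit 6 (4.08%) had an unadjusted p under 0.05, against 3.68% of all genes.

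Other families of C2H2 genes were set beside the Zfp genes, with the same background of 18.3% of all genes (13.3% from B and 5.06% from D). Of 20 Zbtb genes with reads 4 were called (3 from B, 1 from D), of 10 Zscan and Zkscan genes 1 (from D), and of 8 Klf genes 1 (from B). Of 16 genes listed for the KRAB corepressor complex and other silencing proteins 11 had reads, and 3 of 11 were called, all higher from B (median log2 ratio -0.11). These were Cbx1, Hdac1 and Hdac2. Cbx1, a heterochromatin protein, had 194, 179, 121 and 105 reads of B at its single counted SNP, and none of D. Hdac2, a histone deacetylase, had 143 and 5, 159 and 2, 155 and 5, and 117 and 2 B and D reads, also at a single SNP. Trim28, to which KRAB domains bind, had 96 and 114, 98 and 83, 104 and 125, and 73 and 80 reads. Setdb1 had 39 and 24, 44 and 27, 33 and 15, and 32 and 27, and neither Trim28 nor Setdb1 was called.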

How the data were processed

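Poly(A) RNA of 4 pools was sequenced as paired reads of about 50 bases, without strand. The deposited values are raw read counts made by the authors per SNP and allele, with no normalization. The authors treated mates as single reads, aligned them to mm9 with mrsFAST (version not given in the sources used here) and TopHat 1, and kept unique hits. CASAVA is also named in the submitters' processing notes. Whether D variants were masked is stated in different ways, and the meaning of the flag NOOKAY (40 exonic SNPs of Zfp genes) is not given.

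Exonic SNPs of chromosomes 1 to 19 were summed per gene, taking the first SNP of each run 18 bp or less apart within an exon (955 of 1131 for Zfp genes) and leaving out SNPs with the same base for both strains (4 in Zfp genes). SNPs listed under several genes were counted for each. Genes with 1 read or more entered edgeR 4.0.16 in R 4.3.3 (TMM, quasi-likelihood test, 8 allele libraries as samples, Benjamini-Hochberg over all genes, threshold 0.05). Standard errors are the absolute log2 ratio over the square root of F. Parent of origin was tested in the 2 pools whose label and file name match, and strain by sex in all 4. B and D reads of a pool come from the same animals, and their deviations correlated within pools at 0.447 to 0.678 over 3441 genes, so the pool was a block in an alternative. Further alternatives were DESeq2 1.42.0, other library sizes, filters and SNP sets, and each pool left out. Those without NOOKAY SNPs, shared SNPs or SNPs with copies, with thinning across genes, with only the 2 matching pools, and DESeq2 for parent of origin in 4 pools were added after the data were seen. The strain test was tried on simulated data with independent libraries, without the correlation within pools. The parent of origin and strain by sex tests were not simulated. p-values measure the spread between libraries of different crosses and sexes.

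Genes named were all called ones, the 10 with most reads, members of the fixed lists with 10 reads or more, cluster ends and the 5 with the widest spread between SNPs. Genes called only with the block or named for their introns were chosen after their values were seen. Members, lists and tests were chosen with earlier results of these data known. Sequences are from NCBIM37 and exons from GENCODE M1. Figures were drawn with matplotlib 3.10.9, and the tables and intervals came from pandas 2.3.3 and scipy 1.17.1.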

Additional observations from a re-analysis of the deposited data

Results flagged for a closer look

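In 5 of 52 named Zfp genes with reads in all pools, the D share of a pool stood farther from the other 3 than Dixon's 95% limit for 4 samples allows. Chance flags about 1 in 20 groups where values are not tied. For Zfp57, Zfp706 and Zfp777 the other 3 pools were tied, so that any differing read sets a pool apart, and this rate does not hold. Zfp113 had a D share of 0% in pool 4 (3 B and 0 D reads), and 50% to 57.1% in the others. Zfp57 had 83.3% in pool 1 (1 B and 5 D reads) and 50% in each of the others. Zfp664 had 47.8% in pool 4 (213 B and 195 D reads) and 49.5% to 49.6% in the others. Zfp706 had 0.261% in pool 4, from its single D read, and 0% in the others. Zfp777 had 8.33% in pool 4 (22 B and 2 D reads) and 0% in the others.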

How the results depend on the processing

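The test called 16 Zfp genes in the main setting, 13 higher from B and 3 from D. The count was 34 with the pool as a replicate block (19 from B and 15 from D), where all 16 remained, 7 without SNPs that lack a read of one allele (5 from B and 2 from D), and 9 with only the 2 pools whose labels and file names match (9 from B and 0 from D). Leaving out each pool in turn gave 10 to 17 calls, 10 to 14 from B and 0 to 3 from D. The lowest counts came without pool 4 (10, with 0 from D) and without pool 2 (11, with 0 from D), and without pool 3 all 3 genes higher from D were lost and another, Zfp661, was called from D. Over all genes, leaving out a pool gave 1075 to 1245 calls of 7803 to 7849 tested, 228 to 307 of them from D. The main setting gave 1453 of 7927 over all genes, 401 of them from D. With 1 library size per pool there were 14 Zfp genes from B and 0 from D, against 1200 and 242 over all genes. With at least 10 reads per gene there were 14 Zfp genes from B and 5 from D, against 1066 and 419 over all genes. The remaining 11 settings gave 15 to 19 Zfp calls, and 1385 to 1474 calls over all genes. Zfp106 and Zfp180 turned from B to D without SNPs that lack a read of one allele (log2 1.11 and 0.085), since only their SNPs with both alleles then remain, and no other named gene that passed the test turned direction in any setting. No Zfp gene was called for parent of origin or strain by sex in any setting. With a gap of 2 Mb, 5 called genes lay in clusters and 11 outside, and with 0.5 Mb 3 and 13. With SNPs numbered after thinning, 2 called genes had 2 to 3 SNPs, in place of 1. Depth limits the 33 Zfp genes with fewer than 50 reads most, of which 1 was called.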
